A study of Homo sapiens with 6 samples.

Results

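The levels of 6 genes that are usually read as markers of stroma were followed in a tumour cell line. LRRC15, OLFML3 and LUM are best known from fibroblasts, RGS5 from pericytes, PECAM1 from endothelium, and NES from neural stem cells and growing vessels. They are 6 of 14884 genes named on the arrays, and each has 1 probe set (16962911, 16668997, 16768406, 16695791, 17125960 and 16694689, in the same order). They were chosen by their log2 differences between the siRNA groups in these same arrays. Those differences are therefore given below as a description, with a standard error and no test. The cells were MDA-MB-231, a human breast cancer line of the triple-negative class whose own p53 is a mutant form. A lipid reagent (Lipofectamine RNAiMAX) brought in a small interfering RNA (siRNA), which lowers the transcript it matches. In siATM that target is ATM, a kinase activated by broken DNA, in sip53 it is p53, a transcription factor that ATM phosphorylates, and siNC is the negative control. Of each siRNA there are 2 samples, whose total RNA was read on Affymetrix Human Gene 2.0 ST arrays. Whether the 2 came from separate cultures is not stated, so their spread, on which every p-value below rests, may be technical. The labels also do not give the time after transfection or the number of siRNA sequences per target.

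These genes encode proteins of the cell surface, the matrix around cells and the cytoskeleton. LRRC15 is a membrane protein with leucine-rich repeats, known as a surface marker of activated, TGF-beta-exposed fibroblasts and of some mesenchymal tumours. OLFML3 is a secreted olfactomedin-domain protein that binds proteins of the BMP pathway, and lumican, the product of LUM, is a small leucine-rich proteoglycan that binds collagen fibrils. RGS5 shortens signalling of G protein-coupled receptors by speeding GTP hydrolysis on the alpha subunit. PECAM1, or CD31, is an adhesion receptor of endothelial junctions, platelets and leukocytes, and nestin, the product of NES, is an intermediate filament protein that assembles with vimentin.

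The values are log2 levels, and an array's median lay between 5.95 and 5.98. Genes were tested where their mean over the 6 arrays reached 5.96, the median of all probe-set means, and all 6 genes passed this limit, as did 10640 of the 14884. Of the 6, OLFML3 (0.58 above the limit), RGS5 (0.44 above) and PECAM1 (0.41 above) lay close to it, where summarised array values compress differences. VIM, the mesenchymal filament gene, had a mean of 11.6. The hormone receptor genes ESR1 (5.73) and PGR (4.79) lay below the limit.

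Among the 6 genes, LRRC15 and OLFML3 with siATM and NES with sip53 had the largest differences from siNC, and the 250 bases before their RefSeq starts (build GRCh38.p14) are shown for that reason. Capitals mark the matches to 7 motifs, searched on both strands and chosen after the windows had been read. The motifs were the TATA box with the letters TATAAA, the GC box with GGGCGG, the CCAAT box, the AP-1 site with TGACTCA, the E-box with CACCTG, the TEAD site with CATTCC, and the p53 half-site. The LRRC15 window is chr3:194369744-194369993 on the minus strand, that of OLFML3 chr1:113979224-113979473 on the plus strand, and that of NES chr1:156677408-156677657 on the minus strand.
LRRC15: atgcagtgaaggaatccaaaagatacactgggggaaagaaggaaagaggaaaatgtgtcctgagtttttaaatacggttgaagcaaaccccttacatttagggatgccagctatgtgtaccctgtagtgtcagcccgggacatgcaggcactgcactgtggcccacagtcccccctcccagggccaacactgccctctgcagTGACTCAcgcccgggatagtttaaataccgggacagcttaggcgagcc
OLFML3: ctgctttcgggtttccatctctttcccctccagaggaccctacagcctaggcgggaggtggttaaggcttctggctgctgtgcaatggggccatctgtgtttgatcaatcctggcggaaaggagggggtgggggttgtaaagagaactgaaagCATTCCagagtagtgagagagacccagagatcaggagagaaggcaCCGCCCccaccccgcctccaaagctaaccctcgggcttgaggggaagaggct
NES: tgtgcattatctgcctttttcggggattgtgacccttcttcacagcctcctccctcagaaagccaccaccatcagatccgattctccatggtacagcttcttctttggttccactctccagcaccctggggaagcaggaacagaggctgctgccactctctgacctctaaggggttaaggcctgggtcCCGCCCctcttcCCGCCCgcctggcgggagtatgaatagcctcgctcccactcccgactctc
LRRC15 held 1 AP-1 site, on the same strand from 48 to 42 bases before the start, a motif present in 4.2% of all 35116 windows of this length. OLFML3 held 1 TEAD site (11.9% of windows) and 1 GC box (42.6% of windows). NES held 2 GC boxes, 62 to 57 and 50 to 45 bases before the start. No motif was shared by LRRC15 with either of the other windows, and no matches overlapped. RGS5 has 2 start windows, the first with 2 GC boxes, a TEAD site and an E-box (17.5% of windows) and the second with a CCAAT box (32% of windows). Neither TATAAA (10.7% of windows) nor the p53 half-site (5.57% of windows) was found in any of the 5 windows of these 4 genes. LUM and PECAM1 were not matched in the promoter table. A match is a run of letters and not a site shown to be bound.

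LRRC15 stood apart with siATM alone. Its log2 levels were 8.17 and 8.13 with siNC, 9.43 and 9.51 with siATM, and 8.08 and 8.07 with sip53. The siATM arrays lay at least 1.26 above every siNC array and at least 1.35 above every sip53 array, while the farthest siNC and sip53 arrays were 0.10 apart. The siATM mean of 9.47 ± 0.06 (SD, n = 2) was 2.50-fold above the siNC mean of 8.15 ± 0.03 (SD, n = 2), a log2 difference of 1.32 (moderated SE 0.06). Only 11 of the 10640 tested genes, 0.103%, had a larger difference in size in that comparison. Against sip53 it was 2.63-fold higher (log2 difference 1.40), and 6 genes had a larger difference. The sip53 mean was lower than the siNC mean by 0.08 on the log2 scale (SE 0.06), and 59.4% of tested genes differed by more than that.

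**Figure D1:**
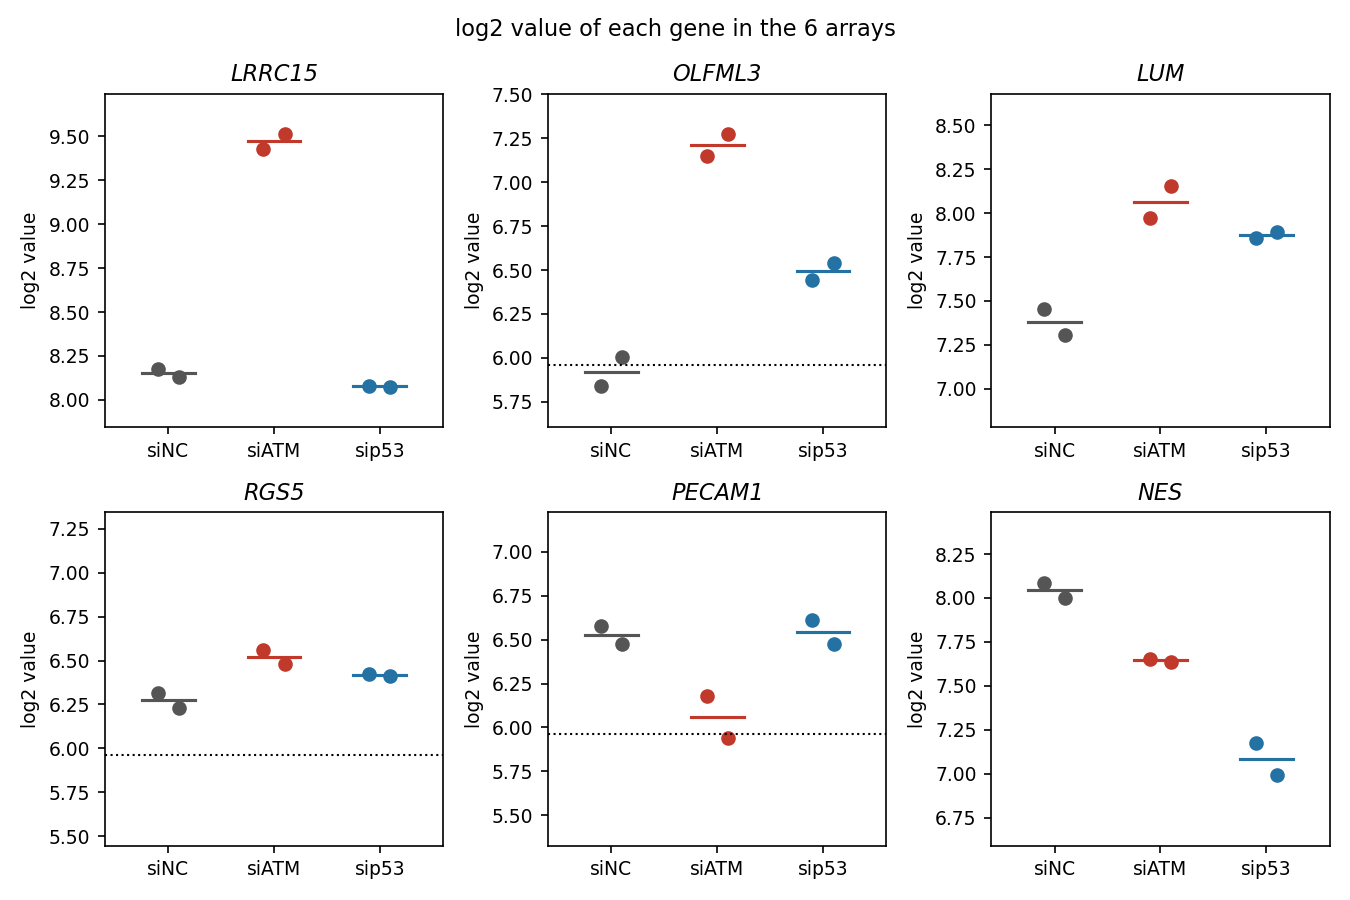
The log2 value (vertical axis, a span of 1.9 in each panel) of each gene is plotted for the 2 arrays of siNC, siATM and sip53, with points for arrays, bars for group means and a dotted line at the brightness limit of 5.96 where it lies in range. LRRC15 is high in the siATM arrays alone, OLFML3, LUM and RGS5 run from siNC through sip53 to siATM, PECAM1 is low in the siATM arrays, and NES runs down from siNC through siATM to sip53.

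Other membrane proteins with leucine-rich repeats gave mixed values. Of 48 such genes besides LRRC15, 24 were tested, and after siATM 5 rose and 0 fell (limma, adjusted p below 0.05), or 20.8%, against 25.5% of all tested genes. Their median log2 difference was −0.04, beside −0.0006 over all genes. LGR4, a receptor for R-spondins, rose from 9.89 to 10.92 (log2 difference 1.03, SE 0.06, limma adjusted p = 0.0002), and FLRT2, an adhesion protein that also acts as a repulsive guidance cue, rose from 6.76 to 7.54 (0.78, SE 0.07, limma adjusted p = 0.00067). ELFN2 (0.51), LRIG3 (0.30) and LRIG2 (0.26) also rose. LGR4 and FLRT2 kept their calls whichever array was left out. ELFN2 lost its call without either siNC array, LRIG3 without siNC replicate 1 or siATM replicate 2, and LRIG2 without either siNC array or siATM replicate 1. The count was 2 without siNC replicate 1, 3 without siNC replicate 2 and 3 without the brightness limit. After sip53, 5 of 24 rose and 0 fell, 20.8% beside 10.6% of all genes. They were LGR5 (0.47), LRRN4 (0.45), AMIGO2 (0.37), LRIG2 (0.25) and LGR4 (0.25). LGR5 was dim, with siNC arrays at 6.01 and 5.69, and its siNC mean of 5.85 lay below the brightness limit. Without that limit it lost its call (limma adjusted p = 0.095), as did LRIG2 and LGR4. AMIGO2, LRIG2 and LGR4 lost their calls without any siNC or sip53 array. LGR5 lost its call without siNC replicate 2 or either sip53 array, and LRRN4 without sip53 replicate 2. Over all genes 582 were higher and 544 lower after sip53, or 410 and 668 with each array centred on its median. The family's count was 2, 1, 1 and 0 without siNC replicate 1, siNC replicate 2, sip53 replicate 1 and sip53 replicate 2. It was also 3 with each array centred on its median and 2 without the brightness limit. LRIG2 after siATM, LGR4 after sip53, and below BMPER and BMP4 after siATM, BCAM, GFAP, DES and LMNB2 after sip53, CD34, CLDN5 and KDR were named after their values were seen.

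OLFML3 differed between all 3 groups. Its log2 levels were 5.84 and 6.01 with siNC, 6.44 and 6.54 with sip53, and 7.15 and 7.27 with siATM. No group overlapped another, with siNC lowest and siATM highest, and 1 siNC array lay below the brightness limit of 5.96. The siATM mean of 7.21 ± 0.09 (SD, n = 2) was 2.45-fold above the siNC mean of 5.92 ± 0.12 (SD, n = 2), a log2 difference of 1.29 (SE 0.08), and 15 tested genes, 0.141%, had a larger difference in size. The sip53 mean of 6.49 ± 0.07 (SD, n = 2) was 1.49-fold above siNC (0.57, SE 0.08) and 0.72 (SE 0.08) below siATM. The siNC mean lies below the brightness limit, which the gene passed through its siATM and sip53 arrays. Its folds may therefore be compressed, and that was not tested.

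Genes with an olfactomedin domain did not move as 1 group. Of 12 besides OLFML3, 6 were tested, and 50% were called in each comparison against siNC, beside 25.5% of all genes after siATM and 10.6% after sip53. After siATM 2 of them rose, the latrophilin genes ADGRL2 (0.53, SE 0.06) and ADGRL1 (0.30, SE 0.08), and 1 fell, OLFML2B, from 7.83 to 6.89 (−0.94, SE 0.06, limma adjusted p = 0.00028). That OLFML2B difference had the opposite sign to that of OLFML3. After sip53, ADGRL2 (0.74) and OLFML2A (0.62) rose and OLFML2B fell (−0.28). The median of the 6 was 0.10 after siATM and 0.02 after sip53, beside −0.0006 and 0.01 over all genes. ADGRL1 lost its call without siNC replicate 1, siATM replicate 2 or either sip53 array, after quantile normalization, after centring, without the brightness limit and with a gene's probe sets averaged. OLFML2B after sip53 lost it in each of the 4 fits without a siNC or sip53 array.

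The list of BMP ligands (BMP2, BMP4 and BMP7), their antagonists and the chordin-cleaving proteases, the pathway in which OLFML3 is known to act, held both rises and falls. Of 18 genes, 14 were tested, and after siATM 2 rose and 4 fell, 42.9% beside 25.5% of all genes. CHRDL1, a secreted BMP antagonist related to chordin, fell from 7.65 to 6.001 (−1.65, SE 0.06, limma adjusted p = 4.8e-05), TWSG1, which helps chordin hold BMPs, fell by 0.39, the follistatin-like gene FSTL3 by 0.38 and BMPER by 0.38, all on the log2 scale. FST, or follistatin, rose from 8.63 to 9.42 (0.79, SE 0.06), and the ligand gene BMP4 rose by 0.25. BMPER and BMP4 lost their calls after siATM without either siNC array or siATM replicate 1, while CHRDL1, FST, TWSG1 and FSTL3 kept theirs whichever array was left out. After sip53, 3 rose and 1 fell, 28.6% beside 10.6%: FST (0.73), BMP4 (0.34) and NOG, or noggin (0.25), rose and CHRDL1 fell (−0.54). BMP4 and NOG lost their calls in each of the 4 fits without a siNC or sip53 array, which leaves a count of 2 there. NOG also lost its call after quantile normalization (limma adjusted p = 0.0737) and after centring (limma adjusted p = 0.0869). CHRDL1 therefore ran opposite to OLFML3 in both comparisons, while FST and BMP4 ran the same way as OLFML3 in both. These comparisons share the siNC arrays.

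LUM was higher with both siRNAs than with siNC. Its log2 levels were 7.45 and 7.31 with siNC, 7.86 and 7.89 with sip53, and 7.97 and 8.15 with siATM. The siATM mean of 8.06 ± 0.13 (SD, n = 2) lay 0.68 (SE 0.08) above the siNC mean of 7.38 ± 0.10 (SD, n = 2), or 1.60-fold, and the sip53 mean of 7.88 ± 0.02 (SD, n = 2) lay 0.49 (SE 0.08) above it, or 1.41-fold. Between siATM and sip53 the difference was 0.19 (SE 0.08), with 0.08 between the nearest arrays of the 2 groups. It was 0.10 without siATM replicate 2 and 0.28 without siATM replicate 1, so the size of that last step depends on which siATM array is kept.

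The relatives of lumican gave smaller values. Of 14 other small leucine-rich proteoglycan genes, 13 were named and 6 were tested. With limma, 0 of 6 changed after siATM (25.5% of all genes did) and 0 of 6 after sip53 (10.6%), and at an unadjusted p below 0.05 1 did after siATM and 1 after sip53. Their median difference was −0.02 after siATM and 0.01 after sip53. The largest difference in size among the 6 was that of OPTC, −0.18 with siATM and −0.18 with sip53 (SE 0.06 in each), opposite in sign to LUM and not called. BGN, or biglycan, was at 7.61 with siNC, 7.62 with siATM and 7.66 with sip53, and PRELP at 6.82, 6.72 and 6.82. DCN, or decorin, the member most typical of fibroblasts, had a mean of 2.82 over the 6 arrays and was not tested.

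RGS5 had the smallest spread of the 6 genes, with a whole range of 0.33. Its log2 levels were 6.32 and 6.23 with siNC, 6.42 and 6.41 with sip53, and 6.56 and 6.48 with siATM. The order was siNC, sip53, siATM with no overlap, but the gaps between neighbouring groups were 0.10 and 0.06, about as wide as the 0.08 between the 2 arrays of siNC. The siATM mean lay 0.25 (SE 0.06) above siNC, or 1.19-fold, and 24% of tested genes had a larger difference in size. The sip53 mean lay 0.14 (SE 0.06) above siNC, and 34.1% had a larger one.

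Of 20 other RGS genes, 11 were tested. After siATM, RGS9 rose from 7.58 to 8.07 (0.49, SE 0.07, limma adjusted p = 0.0025), RGS4 rose (0.20) and RGS10 fell (−0.46), 27.3% called beside 25.5% of all genes, with a median of −0.06. RGS10 lost its call without siNC replicate 1 or siATM replicate 2, and RGS4 without any 1 of the 6 arrays, so the count of 3 was 1 without siNC replicate 1 and 1 without siATM replicate 2. RGS4 also lost it after centring (limma adjusted p = 0.0547). After sip53, 1 of 11 fell, RGS19 (−0.28), beside 10.6% of all genes, and it lost its call in each of the 4 fits without a siNC or sip53 array. Of 24 genes of G protein subunits, on which RGS proteins act, 2 were named, 0 of these passed with limma after siATM (25.5% of all genes did) or after sip53 (10.6%), and 0 did at an unadjusted p below 0.05.

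PECAM1 was lower with siATM and level with sip53. Its log2 levels were 6.58 and 6.48 with siNC, 6.61 and 6.47 with sip53, and 6.18 and 5.94 with siATM. The siATM arrays lay below the other 4, the lower of them under the brightness limit of 5.96, and the siNC and sip53 arrays overlapped. The siATM mean of 6.06 ± 0.17 (SD, n = 2) lay below the siNC mean of 6.53 ± 0.07 (SD, n = 2), with a log2 difference of −0.47 (SE 0.09), or 1.38-fold. Against sip53 the difference was −0.48 (SE 0.09). The sip53 mean was 0.02 above siNC (SE 0.09), a sign that turned without siNC replicate 2 (−0.03) or sip53 replicate 1 (−0.05) and after centring (−0.02), and 90.7% of tested genes differed by more. The 2 siATM arrays were 0.24 apart, the widest replicate gap among the 6 genes.

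The other adhesion molecules of leukocytes and endothelium included several with the same direction. Of 23 besides PECAM1, 13 were tested, and after siATM 4 fell and 1, BCAM (0.26), rose, 38.5% beside 25.5% of all genes, with a median of 0.02. MCAM, also a pericyte marker, fell from 7.61 to 6.82 (−0.79, SE 0.07, limma adjusted p = 0.0006), the junction protein gene ESAM from 10.39 to 9.64 (−0.75, SE 0.07, limma adjusted p = 0.0009), ICAM2 from 9.11 to 8.53 (−0.58, SE 0.06, limma adjusted p = 0.001) and VCAM1 from 7.13 to 6.70 (−0.44, SE 0.08, limma adjusted p = 0.0086). These 4 kept their calls whichever array was left out, while BCAM lost its call without either siNC array or siATM replicate 1. After sip53 1 of 13 fell, ICAM1 (−0.81, SE 0.06), 7.69% beside 10.6%. In the direct comparison ESAM (−0.77), MCAM (−0.66) and ICAM2 (−0.49) were lower with siATM than with sip53 and ICAM1 (0.69) and BCAM (0.27) were higher, 38.5% called beside 30.3% of all genes. BCAM lost that call without siATM replicate 1 or sip53 replicate 2.

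NES was lower with both siRNAs, and lowest with sip53. Its log2 levels were 8.09 and 8.002 with siNC, 7.65 and 7.64 with siATM, and 7.17 and 6.99 with sip53. No group overlapped another, and the gaps between neighbouring groups were 0.35 and 0.46. The sip53 mean of 7.08 ± 0.13 (SD, n = 2) was 1.95-fold below the siNC mean of 8.04 ± 0.06 (SD, n = 2), a log2 difference of −0.96 (SE 0.07). In that comparison 10 tested genes, 0.094%, had a larger difference in size. The siATM mean of 7.64 ± 0.0098 (SD, n = 2) was 1.32-fold below siNC (−0.40, SE 0.07) and 1.48-fold above sip53 (0.56, SE 0.07). NES was the only 1 of the 6 whose difference from siNC was larger with sip53 than with siATM.

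Other intermediate filament genes gave mixed values after sip53. Of 15 outside the keratins, 7 were tested, and after sip53 0 of 7 changed with limma, beside 10.6% of all genes, and 2 had an unadjusted p below 0.05. GFAP (−0.25), DES (−0.24) and LMNB2 (−0.24) had differences of the same sign as NES, and the other 4 lay between 0.01 and 0.14. LMNB2 passed with the brightness limit at the 70th percentile (limma adjusted p = 0.0196), with a variance trend (limma adjusted p = 0.00821), without either siATM array (limma adjusted p = 0.0398 in each), after quantile normalization (limma adjusted p = 0.0494) and with centred arrays (limma adjusted p = 0.0457). VIM, the partner of nestin in filaments, was at 11.62 with siNC, 11.62 with siATM and 11.63 with sip53. After siATM 2 of 7 fell, the nuclear lamin genes LMNB1 (−0.44, SE 0.07) and LMNB2 (−0.40, SE 0.06), 28.6% beside 25.5% of all genes. Of the neural stem and glial markers, 4 of 11 were tested, and 0 changed after siATM (25.5% of all genes did) or after sip53 (10.6%) with limma (0 after siATM and 1 after sip53 at an unadjusted p below 0.05). SOX2 was at 6.01, 6.02 and 6.10 in siNC, siATM and sip53. Differences with siATM and sip53 were −0.24 and −0.25 for GFAP, −0.11 and 0.0005 for MSI1, and 0.10 and 0.13 for OLIG2. The summed log2 level of all 8 named markers, 4 of them below the brightness limit, was 48.19 to 48.22 with siNC. It was 46.32 to 48.13 with siATM and 47.53 to 47.83 with sip53, lower with both siRNAs, as NES was, but with its lowest array in siATM.

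**Figure D2:**
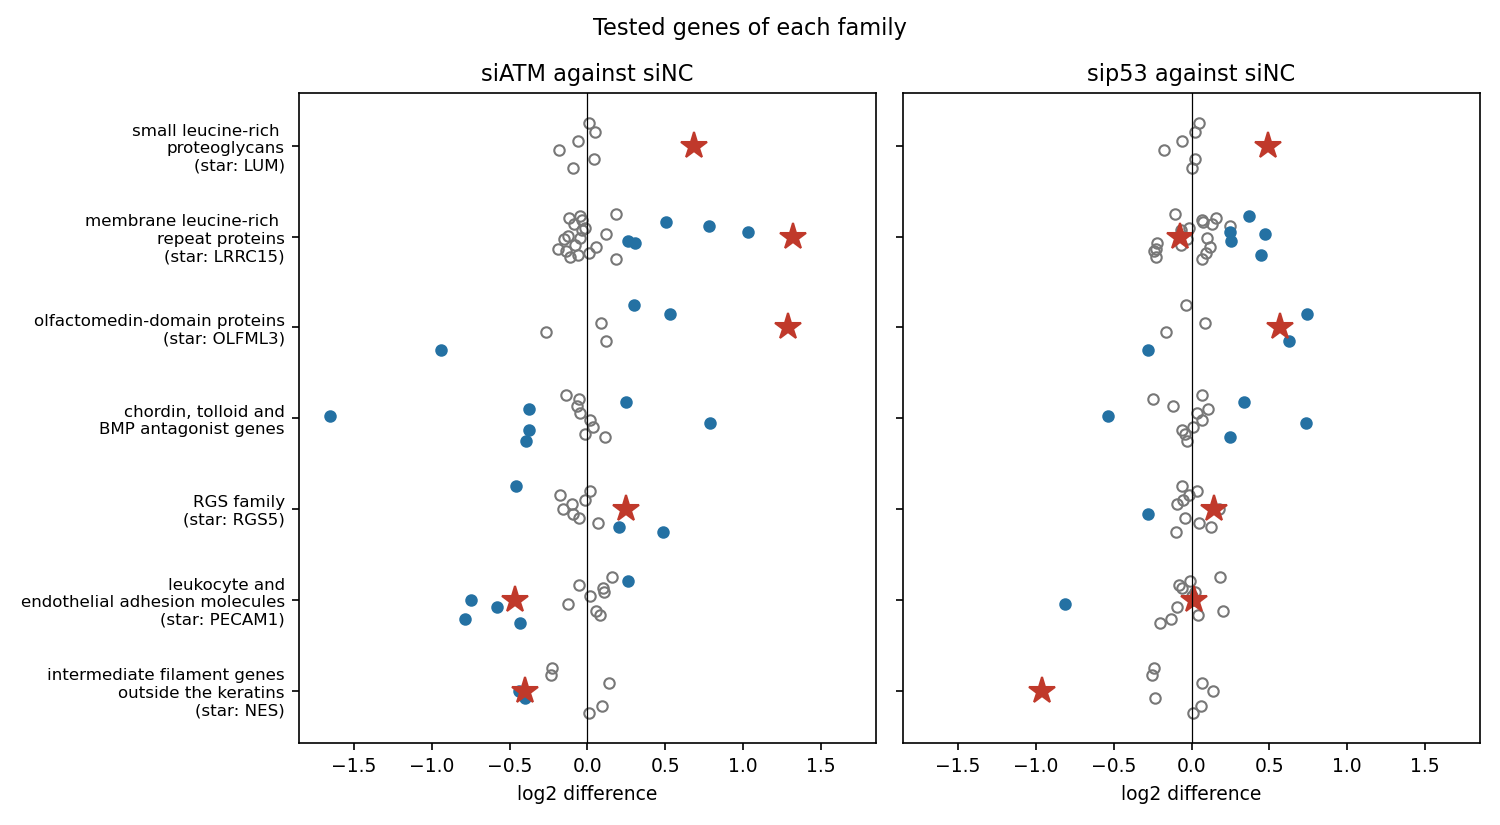
Each point is the log2 difference (horizontal axis) of 1 tested gene of a family (vertical axis) for siATM against siNC on the left and sip53 against siNC on the right, filled where the gene passed limma at an adjusted p below 0.05 and open where it did not, with a star for the gene described above from that family. LUM lies outside the range of its 6 relatives in both panels, LRRC15 above its 24 relatives with siATM, OLFML3 above its 6 with siATM, and NES below its 7 with sip53. RGS5 and PECAM1 lie inside the range of their relatives in both panels, as do LRRC15 and OLFML3 with sip53 and NES with siATM. The starred genes were chosen by their differences in these arrays and their relatives were not, so a place outside the range is partly built in.

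Set side by side, the 6 genes fell into 3 patterns, which describe the choice of genes as well as the cells. LRRC15 and PECAM1 differed from siNC with siATM and little with sip53, in opposite directions. OLFML3, LUM and RGS5 were higher with both siRNAs, more so with siATM. NES was lower with both, more so with sip53. The arrays of the 2 groups did not overlap for 6 of the 6 genes between siATM and siNC (62.7% of all tested genes), for 5 between sip53 and siNC (58.9%) and for 6 between siATM and sip53 (65.4%). These counts follow from how the genes were chosen and are no evidence about them.

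**Figure D3:**
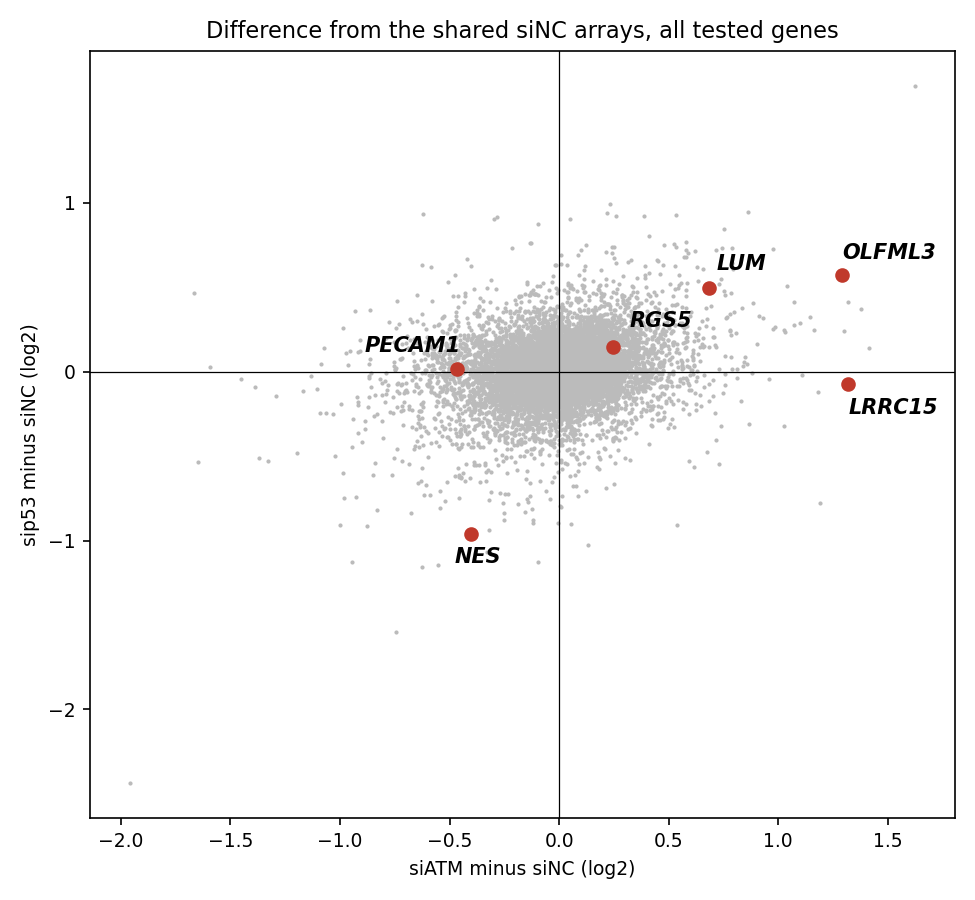
The log2 difference of siATM from siNC (horizontal axis) and of sip53 from siNC (vertical axis) is plotted for the 10640 tested genes in grey and the 6 genes in red, and since both axes use the same siNC arrays their agreement is partly built in. LRRC15 lies at 1.32 and −0.08, OLFML3 at 1.29 and 0.57, LUM at 0.68 and 0.49, RGS5 at 0.25 and 0.14, PECAM1 at −0.47 and 0.02, and NES at −0.40 and −0.96.

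The tested genes whose levels ran most like each of the 6 were found by Pearson's r over the 6 arrays, given as a description, since the arrays form 3 groups. For LRRC15 they were SESN3, CPA4 and DHRS3 (each r of 0.998), with log2 differences from siNC of 1.18, 1.11 and 0.96 with siATM and −0.12, −0.02 and −0.04 with sip53. For OLFML3 they were IFITM10 (0.997), SIAE (0.997) and MYO18A (0.996), and for LUM they were LRPAP1 (0.996), HSPA12B (0.996) and OPN3 (0.994). Of these, OPN3 had differences as large as those of LUM, 0.79 with siATM and 0.61 with sip53, while LRPAP1 differed by 0.08 and 0.05. For RGS5 they were MYLIP (0.994), PRR13 (0.993) and PYCARD (0.992), for PECAM1 SFPQ (0.997), EXPH5 (0.993) and FMR1 (0.993), and for NES ERH (0.996), CRIM1 (0.994) and STC1 (0.993). STC1, the secreted glycoprotein stanniocalcin, was near NES in size too, −0.40 with siATM and −0.95 with sip53. Such likeness is common on 6 arrays: of 9789 genes compared, 333 (3.4%) had an r above 0.95 with LRRC15 and 94 (0.96%) with RGS5.

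**Figure D4:**
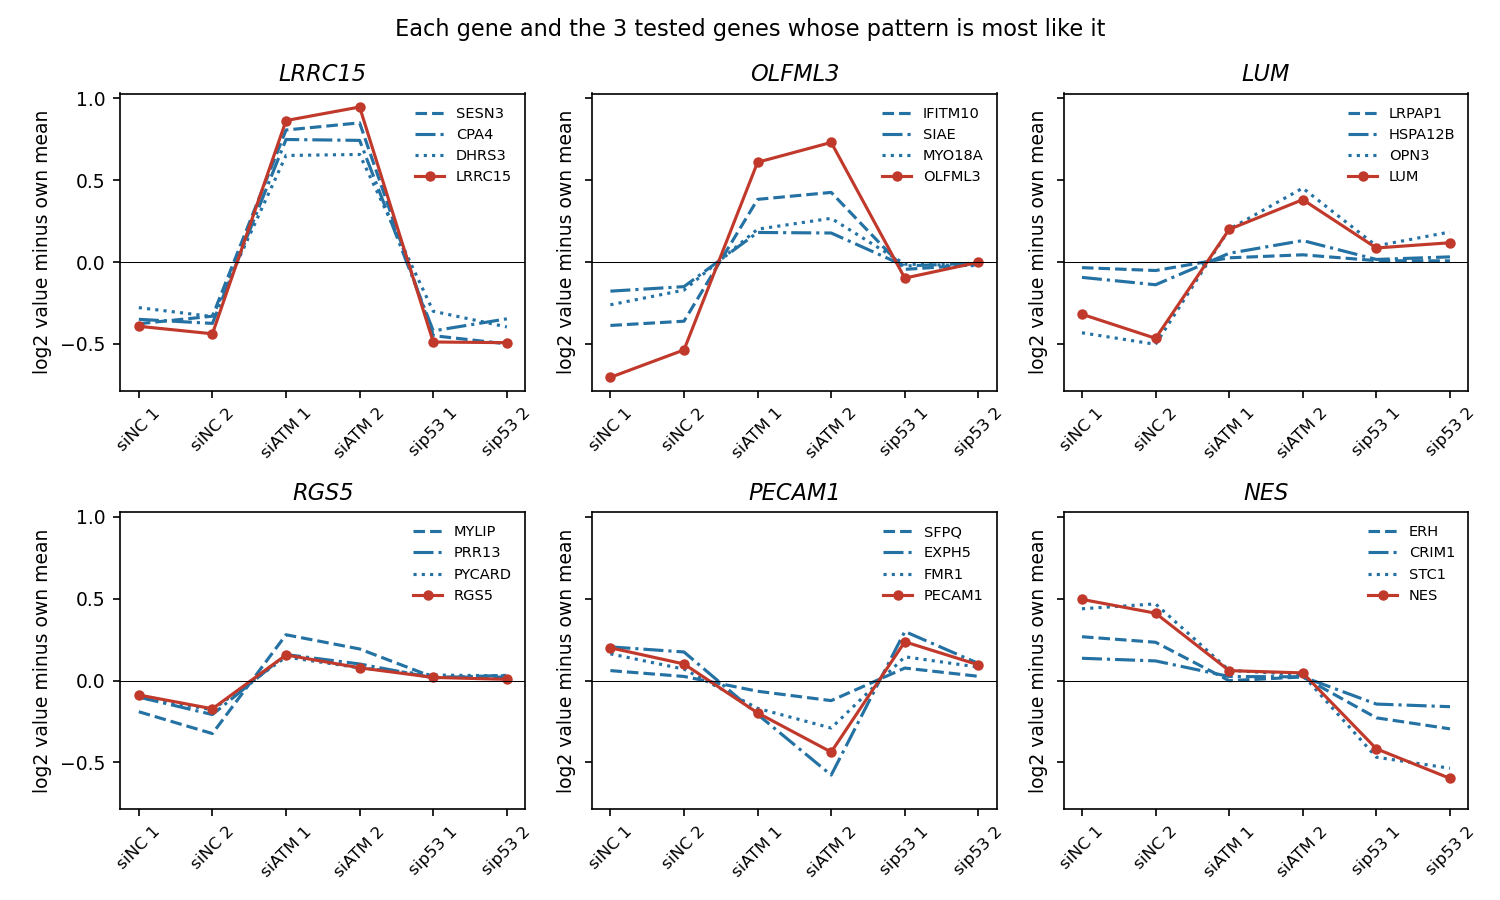
Each panel shows, for the 6 arrays (horizontal axis), the log2 value minus its own mean (vertical axis) of 1 gene in red and of the 3 tested genes most like it in blue. The shapes coincide while the sizes differ, as for LRPAP1, whose whole path is nearly flat beside that of LUM.

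Markers of the cell types for which these genes usually stand were in part dim or not named. All samples are of a cultured tumour cell line, so these values are read as levels in its cells and not as numbers of stromal cells. In a bulk sample, the share of the line's cells that hold a transcript and its level per cell cannot be told apart. Of 18 fibroblast markers, leaving out the 6 genes, 8 were named and 5 passed the brightness limit. The summed log2 level of all 8 named markers, dim ones included, was 54.48 to 54.49 with siNC, 54.78 to 56.16 with siATM and 54.81 to 55.46 with sip53. DCN (2.82), DPT (5.13) and TCF21 (5.53) lay below the limit, while FN1, or fibronectin, rose with siATM from 12.44 to 12.87 (0.43, SE 0.05) and FBN1, or fibrillin, from 8.24 to 8.79 (0.55, SE 0.07) with siATM and to 8.81 (0.57, SE 0.07) with sip53. These are 2 of 5 tested after siATM (40%, beside 25.5% of all genes) and 1 of 5 after sip53 (20%, beside 10.6%). Their part in the values of LRRC15, OLFML3 and LUM was not tested.

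Of 16 pericyte and smooth muscle markers, 7 were named and tested. After siATM MCAM and TAGLN (−0.22) fell and ANGPT1 (0.41) rose, 42.9% beside 25.5% of all genes, and after sip53 TAGLN fell (−0.37), 14.3% beside 10.6%. The list's summed log2 level was 50.04 to 50.31 with siNC, 48.83 to 49.18 with siATM and 49.19 to 49.3 with sip53, lower with both siRNAs where RGS5 was higher. TAGLN lost its call after siATM without any 1 of the 6 arrays and after sip53 in each of the 4 fits without a siNC or sip53 array. ANGPT1 lost its call without either siNC array or siATM replicate 1, so 1 of 7 was left after siATM without either siNC array and 0 of 7 after sip53 in each of those 4 fits.

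Of 22 endothelial markers, 18 were named and 13 tested, and after siATM 4 fell and 1 rose, 38.5% beside 25.5% of all genes, with a median of −0.17. ESAM and ICAM2 also belong to the adhesion molecules above, so the counts of these lists overlap. ESAM, ICAM2 and the water channel gene AQP1 (−0.35, SE 0.06) fell in every fit with 1 array left out, while SOX18 (0.24) and CD34 (−0.24) each lost their call in 5 of these 6 fits, SOX18 in all but the one without siATM replicate 2 and CD34 in all but the one without siNC replicate 1, and the count was 3 without siNC replicate 2, without the brightness limit, with the limit at the 70th percentile and with a variance trend. After sip53 0 of 13 changed with limma, beside 10.6% of all genes, and 4 had an unadjusted p below 0.05. The summed log2 level of all 18 named markers, 5 of them below the brightness limit, was 118 to 118.7 with siNC, 114.8 to 116.1 with siATM and 118.3 to 118.5 with sip53. It was lowest with siATM, as PECAM1 was, while the sip53 sums lay inside the siNC range. Over the 6 arrays the 5 below the limit were VWF (5.56), TIE1 (5.66), FLT1 (5.23), MMRN1 (5.25) and EMCN (3.69), while the other 13, among them CLDN5 (7.27) and KDR (7.04), lay above it. The part of other endothelial genes in the PECAM1 value was not tested.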

How the data were processed

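The deposited table holds 1 log2 value per probe set and array. The background correction, probe summary and normalization by which the authors made these log2 values are not given in sources used here. That they are log2 was judged by their range of 1.327 to 14.24. Ranked within each array, values of one rank spanned 0.0325 on average over the 6 arrays, so a change in total RNA per cell would not show. Of 53617 probe sets, 16098 were named with 1 gene symbol by the platform annotation and 37519 were unnamed here. They cover 14884 genes, 779 of which had several probe sets, and the one with the highest mean was used. Levels of the 2 siRNA targets are not reported here.

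Group means were fitted over the 6 arrays with limma 3.58.1 in R 4.3.3, with variances moderated by eBayes (7.29 degrees of freedom in total), for 3 comparisons. P-values are two-sided, Benjamini-Hochberg adjusted over the 10640 tested genes, and called below 0.05. The 6 genes and the 15 gene lists were chosen with earlier results of these data known. The 6 genes are left out of the lists' counts, and no set test was run. Named were the 6 genes, the 3 tested genes most correlated with each (leaving out non-coding and uncharacterised symbols), and, of each list and comparison against siNC, up to 4 called genes with the largest differences. Some others are said in the text to have been named after their values were seen. BGN, OPTC, PRELP, VIM, ESR1, PGR, the 4 tested neural markers and the markers below the brightness limit were also named outside this rule. Alternatives were other filters on dim genes, quantile normalization, median centring, a variance trend, the mean of all probe sets, a replicate block and leaving out each array. The replicate numbers were not taken to pair the arrays. On simulated arrays for siATM against siNC with 10640 genes, 67, 67 and 66 genes were changed by 0.25, 0.5 and 1 on the log2 scale. Of these, 20.9%, 98.5% and 100% were recovered, with 7 false calls. In the data a larger share of genes was called (25.5% after siATM), so these rates may not carry over. Promoter windows came from RefSeq (GRCh38.p14). No genome build is named for the arrays, so gene coordinates are not given. The number of arrays limits the precision.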

Additional observations from a re-analysis of the deposited data

How the results depend on the processing

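The differences of the 6 genes were recomputed 180 times under 5 kinds of alternative (quantile normalization, median centring, the mean of all probe sets, the replicate block, and each array left out), and 177 kept their sign. The exceptions were all PECAM1 for sip53 against siNC, a difference of 0.02 that was −0.02 with centred arrays and ran from −0.05 to 0.09 as arrays were left out. By more than the replicate SD, 8 moved, each with an array left out: LRRC15 ran from 1.28 to 1.36 for siATM against siNC and from 1.35 to 1.44 for siATM against sip53, and NES from −1.05 to −0.87 for sip53 against siNC and from 0.47 to 0.65 for siATM against sip53. As arrays were left out, the number of changed genes ran from 1437 to 2226 for siATM against siNC (2708 with all arrays), from 272 to 1242 for sip53 against siNC (1126) and from 1842 to 2852 for siATM against sip53 (3219), and the number of changed genes over all lists from 22 to 31 (37), from 8 to 21 (20) and from 25 to 36 (36). For sip53 against siNC, 481 genes changed without the filter on dim genes and 1742 with a variance trend, and 13 list genes changed without the filter; the cause was not tested. With arrays centred, 410 genes rose and 668 fell after sip53, in place of 582 and 544. With the replicate number as a block, 2696, 1001 and 3218 genes were called in the same order, and 37, 16 and 38 list genes. Over all tested genes, same-numbered arrays deviated together with correlations of 0.0363, 0.0277 and 0.117. Of the 6 genes, OLFML3 was higher in replicate 2 than in replicate 1 of every group. RGS5, PECAM1 and NES were lower there in every group, and LRRC15 and LUM had mixed signs. Of small lists, the adhesion molecules after sip53 went from 1 to 2 with a variance trend, and the small proteoglycans after siATM from 0 to 1 without the filter. Of the called list genes, 20 of 37, 7 of 20 and 22 of 36 kept their call whichever array was left out, and 0 changed sign under any alternative run. Brightness limits OLFML3, RGS5 and PECAM1 most, which lie nearest the limit.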

Other observations

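Other gene lists gave these values, where FN1 and TAGLN are also fibroblast and pericyte markers above. Of 7 tested matrix and cytoskeleton genes that TGF-beta induces, FN1 and TPM1 (0.22) rose and CCN2 (−0.27) and TAGLN (−0.22) fell after siATM, and LOX (−0.42), CCN2 (−0.41) and TAGLN (−0.37) fell after sip53. That is 57.1% after siATM, beside 25.5% of all tested genes, and 42.9% after sip53, beside 10.6%. FN1 passed in every fit with 1 array left out, and the other calls of this list were each lost without at least 1 array, so the count of 4 after siATM was 1 without siNC replicate 1, siNC replicate 2 or siATM replicate 1 and 2 without siATM replicate 2 or either sip53 array, and the count of 3 after sip53 was 0 without sip53 replicate 1 and 1 without either siNC array or sip53 replicate 2. The siATM count was also 1 without the filter on dim genes and 2 with a gene's probe sets averaged.

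Of 6 tested haematopoietic markers, CD14, the lipopolysaccharide co-receptor, rose after siATM (1.19) and fell after sip53 (−0.78), and LYZ, or lysozyme, rose after siATM (0.38), calls kept in every fit with 1 array left out (33.3% after siATM beside 25.5% of all genes, and 16.7% after sip53 beside 10.6%). Of 8 tested epithelial markers, KRT19 (0.29) and KRT7 (0.21) rose after siATM and KRT7 (0.28) after sip53, 25% and 12.5% beside 25.5% and 10.6% of all genes. The count was 0 after siATM without siNC replicate 1 or siATM replicate 2 and 0 after sip53 in each of the 4 fits without a siNC or sip53 array. It was 4 after siATM with a stricter brightness limit and with a variance trend. The summed log2 level of the 6 named haematopoietic markers was 48.88 to 49.33 with siNC, 50.22 to 50.48 with siATM and 48.07 to 48.12 with sip53, and that of the 12 named epithelial markers 91.33 to 91.47, 92.11 to 92.74 and 92.08 to 92.15.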
